A study of Mus musculus with 12 samples.

Results

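NRF2, encoded by Nfe2l2, is the transcription factor that drives the antioxidant response, and 9 of its target genes were followed with it in RNA-seq counts from mouse bone marrow cells. The set is defined by gene symbol and its rule uses no measured value, although it was chosen with earlier results of these data known. It holds 10 of the 55487 genes in the count tables, and all 10 were found in both tables and passed the filter on low counts in both experiments. Bone marrow-derived macrophages (BMMs) came from C57BL/6 mice that had undergone ovariectomy (OVX), which removes the source of ovarian estrogen and is used as a model of postmenopausal bone loss, or a sham operation. According to the methods the mice were female and the marrow cells were grown with macrophage colony-stimulating factor, so the libraries describe cultured cells and not macrophages taken directly from bone. Mesenchymal stem cells (MSCs), also cultured from C57BL/6 marrow, were grown alone (MSC) or shared medium through a porous transwell membrane with RAW264.7 cells, either untreated (MSC+RAW-TW) or treated with lipopolysaccharide (MSC+RAW-LPS-TW). RAW264.7 is a mouse macrophage line, and lipopolysaccharide is a bacterial cell wall component that activates macrophages. All labels give an age of 8 weeks and limbs as the tissue. There were 3 OVX and 3 sham libraries and 2 libraries of each MSC group.

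In unstressed cells NRF2 protein is held by KEAP1, which presents it to a CUL3-RBX1 ubiquitin ligase for degradation. Oxidants and electrophiles modify cysteines of KEAP1, NRF2 is spared, enters the nucleus, pairs with a small MAF protein (MAFG, MAFK or MAFF) and binds the antioxidant response element of its targets, while BACH1 competes for the same sites as a repressor. Much of this control acts on the protein, which RNA-seq does not measure. The targets fall into groups. HMOX1 degrades haem and NQO1 reduces quinones. GCLC and GCLM are the catalytic and modifier subunits of glutamate-cysteine ligase, the first step of glutathione synthesis, SLC7A11 imports the cystine it needs, and GSR returns oxidized glutathione to its reduced form. TXNRD1 reduces thioredoxin, PRDX1 removes peroxides, and SRXN1 repairs over-oxidized peroxiredoxins. In macrophages several of these genes are also induced by inflammatory signals, and in bone NRF2 is known to restrain osteoclast formation.

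In the annotation of GRCm38, Nfe2l2 (ENSMUSG00000015839) lies at chr2:75675513-75704641 on the minus strand. Hmox1 (ENSMUSG00000005413) lies at chr8:75093621-75100589 on the plus strand and Nqo1 (ENSMUSG00000003849) at chr8:107388225-107403206 on the minus strand. Gclm (ENSMUSG00000028124) lies at chr3:122245557-122270732 and Gclc (ENSMUSG00000032350) at chr9:77754535-77794485, both on the plus strand, Slc7a11 (ENSMUSG00000027737) at chr3:49892526-50443614 on the minus strand, and Gsr (ENSMUSG00000031584) at chr8:33652523-33698163 on the plus strand. Txnrd1 (ENSMUSG00000020250) lies at chr10:82833951-82897712, Srxn1 (ENSMUSG00000032802) at chr2:152105516-152111376 and Prdx1 (ENSMUSG00000028691) at chr4:116685544-116700822, all 3 on the plus strand. The counts are sums over the exons of each gene, introns excluded.

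To show the regulatory letters that these genes do and do not share, RefSeq promoter windows (GRCm38.p6, 250 bases before to 50 after the start site) were searched on both strands. The windows of 7 of the 10 genes were used, all but those of Hmox1, Gclc and Gsr. The core of the antioxidant response element, TGACNNNGC (GCNNNGTCA on the other strand), was found in 5 of the 9 windows of these genes, 1 window in each of 5 genes, and in 12.4% of all 32851 promoters. A variant core, TGAGNNNGC, occurred in 17.6% of all promoters. The AP-1 motif TGANTCA, which can overlap either core, occurred in 7.81%, and the CARE motif TGATGNAA, bound by ATF4 when amino acids are short, occurred in 3.97%. The stretches below are printed 5′ to 3′ on the strand of the gene, with the match in capitals.
Nfe2l2, chr2:75704865-75704913, minus strand, core starting 240 bases before the start site: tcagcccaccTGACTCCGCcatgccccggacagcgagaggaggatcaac
Gclm, chr3:122245393-122245461, plus strand, core on the reverse strand 134 bases before the start site: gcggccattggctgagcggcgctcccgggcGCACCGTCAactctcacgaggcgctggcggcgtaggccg
Prdx1, chr4:116685436-116685504, plus strand, core on the reverse strand 133 bases before the start site, overlapping an AP-1 motif: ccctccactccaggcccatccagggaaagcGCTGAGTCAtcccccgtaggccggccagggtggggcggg
Txnrd1, chr10:82859084-82859152, plus strand, before the second of its listed start sites, core on the reverse strand 92 bases upstream: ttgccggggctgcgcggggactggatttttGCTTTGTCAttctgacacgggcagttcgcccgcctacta
Srxn1, chr2:152105449-152105517, plus strand, variant core 45 bases before the start site, overlapping an AP-1 motif: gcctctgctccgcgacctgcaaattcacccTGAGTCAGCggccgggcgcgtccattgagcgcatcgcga
Slc7a11, chr3:50443633-50443699, minus strand, a pair of CARE motifs on opposite strands, the first 66 bases before the start site: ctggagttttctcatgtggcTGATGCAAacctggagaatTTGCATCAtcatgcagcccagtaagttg
The core in the Srxn1 window lay after the start site and is not printed. No searched motif was found in the Nqo1 window. A match is a string of letters and not a measured binding site. The 5 genes with a core in their window had fold changes of both signs in each of the 4 comparisons.

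Library totals ran from 17012923 to 45367105 counts. Sham replicates 2 and 3 were near-identical, as were both MSC+RAW-TW libraries, which carry the same name in the count table. Each of these pairs was summed and counted as 1 sample, so n is 3 for OVX, 2 for sham, MSC and MSC+RAW-LPS-TW, and 1 for MSC+RAW-TW. The single MSC+RAW-TW sample was assumed to vary like the other MSC groups. The labels do not say whether libraries came from separate animals or cultures, so p-values measure the spread between these samples only. The MSC+RAW-TW libraries stood apart from the other MSC libraries, with 19657 to 19751 genes detected and 0.16% to 0.165% of counts from mitochondrial DNA, against 22068 to 24876 genes and 0.533% to 0.746%. The libraries labelled MSC carried more RNA of macrophage markers than of stromal markers. The summed level of 20 macrophage markers was 32687 to 32731 CPM (counts scaled to the library size) in the libraries labelled MSC, 42218 to 42888 in MSC+RAW-TW and 18543 to 19301 in MSC+RAW-LPS-TW, with none of the 20 at 0. The 14 stromal markers summed to 2962 to 3112, 2658 to 2697 and 4316 to 4326 CPM in the same groups. The BMM libraries held 48901 to 72326 CPM of the macrophage markers and 7365 to 8580.0 CPM of the stromal ones. Lyz2 was the largest part of the macrophage sums. Its mean was 21787 CPM in MSC, 26328 in MSC+RAW-TW, 9562 in MSC+RAW-LPS-TW, 48801 in sham and 38203 in OVX. The groups also differed in their trend on GC content. The Spearman rho between the GC content of a gene and its log2 level relative to the mean of the experiment ran from -0.61 to -0.34 in OVX libraries, from 0.22 to 0.54 in sham, from -0.32 to -0.15 in MSC and MSC+RAW-LPS-TW, and was 0.41 in both MSC+RAW-TW libraries.

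Levels per kilobase of exon (CPM per kb) place the genes on a common scale within an experiment, and the experiments were scaled separately. In BMMs Prdx1 was highest, at 1150.2 ± 593 CPM per kb in sham (SD, n = 2) and 739.9 ± 98.6 in OVX (n = 3), followed by Hmox1 at 170.1 ± 16.5 and 80.1 ± 9.60. In the middle of the sham order, Gclm at 65.0 ± 3.43 CPM per kb stood above Srxn1 at 49.8 ± 2.18 and Nfe2l2 at 41.0 ± 8.03 by more than their SDs. The SD of Gsr, at 51.3 ± 17.4, reached all 3 of these, and those of Srxn1 and Nfe2l2 met. Nqo1 at 7.91 ± 2.05 and Gclc at 6.07 ± 1.45 CPM per kb did not differ beyond their spread, and Slc7a11 was lowest at 1.43 ± 0.422. In OVX Nfe2l2 took the third place, at 55.3 ± 12.4 CPM per kb, within its spread of Gclm at 48.3 ± 2.04. In the MSC groups Hmox1 came first, at 742 ± 55.0 CPM per kb in MSC, 766 in MSC+RAW-TW and 832 ± 74.2 in MSC+RAW-LPS-TW. Prdx1 was next, at 331 ± 20.1, 380.0 and 202 ± 13.6, and Slc7a11 was last in every group. The exon length used for Slc7a11, 13922 bases, is the longest of the set, and a gene that is mostly transcribed as a shorter form has a level per kb that is too low.

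**Figure D1:**
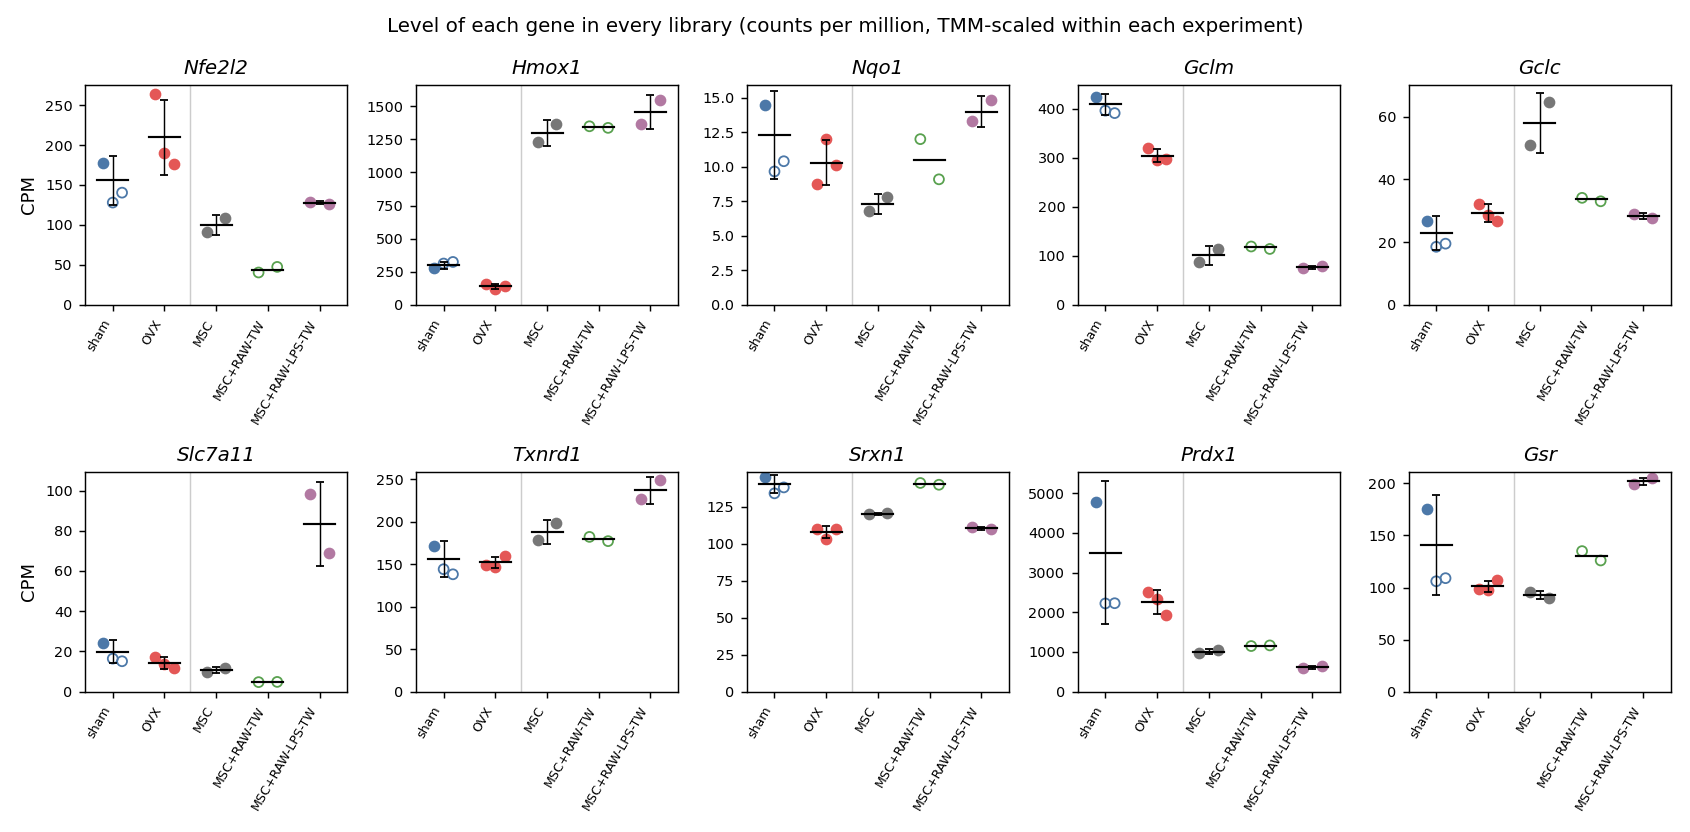
CPM of each gene (vertical axes from 0) in every library of the 5 groups. Open circles mark near-identical libraries that were summed to 1 sample, black lines the group mean and bars the SD where n is above 1. Hmox1 sits at 277 to 324 CPM in sham and 122 to 154 in OVX, and Slc7a11 at 68.8 to 98.3 CPM in MSC+RAW-LPS-TW against 4.72 to 11.8 in the other MSC libraries.

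The comparison of OVX with sham asks how the antioxidant genes of macrophages stood after ovariectomy. Hmox1 was the only gene of the set that passed the test, defined here as an adjusted p of at most 0.05 in edgeR's quasi-likelihood test with Benjamini-Hochberg adjustment over all 15778 genes tested, and it was lower in OVX. Of all genes 14.2% passed, 6.19% downward, so 1 of 10 is near the background. The median log2 fold change of the set was -0.43, with 8 of 10 below 0, against -0.01 over all genes. An unadjusted p of at most 0.05 was met by 4 genes of the set and by 31.2% of all genes. At a fold of at least 2 as well, 1430 genes (9.06%) were called, 931 higher (5.9%) and 499 lower (3.16%) in OVX, and Hmox1 was among the latter. When trends of each library on GC content and exon length were corrected for, 594 were called, 226 higher and 368 lower.

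Hmox1 was at 277, 312 and 324 CPM in sham replicates 1 to 3 and at 154, 122 and 145 CPM in OVX replicates 1 to 3. Every OVX library lay below every sham library. The group means were 298 ± 28.8 CPM (SD, n = 2) and 140.2 ± 16.8 CPM (n = 3), a 2.17-fold fall, with a log2 fold change of -1.12 (SE 0.19, adjusted p = 0.0109). Over 15 alternative settings the log2 fold change ran from -1.25 to -0.83 and the adjusted p from 6.74e-06 to 0.073, and the call was lost only without OVX replicate 2 (log2 fold change -1.02, adjusted p = 0.073). Macrophage markers moved with it. The 20 markers summed to 64439.7 to 72326 CPM in sham and 48901 to 53315 CPM in OVX, 10 of them passed downward and 1 upward, and their median log2 fold change was -0.67. Of 5 osteoclast markers 4 could be tested and 3 passed downward (median log2 fold change -1.43), and their sum was 458 to 581 CPM in sham and 261 to 270.5 CPM in OVX. The 8 neutrophil markers summed to 822 to 912 CPM in sham and 1212 to 1349 CPM in OVX, and 1 passed, upward (median log2 fold change 0.39). Ribosomal RNA took 5.69% and 5.699% of counts in sham replicates 2 and 3, 3.221% in sham replicate 1 and 2.559% to 2.775% in OVX. The part of these in the fall of Hmox1 was not tested. In bulk RNA, fewer cells of a type and less RNA per cell cannot be told apart.

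The regulator itself did not pass. Nfe2l2 was at 177, 128 and 140.4 CPM in sham replicates 1 to 3 and at 264, 189.9 and 176 CPM in OVX, so that the lowest OVX library lay just under the highest sham library (log2 fold change 0.40, SE 0.23, adjusted p = 0.276). Keap1, its partner in degradation, fell from 81.3 ± 15.3 to 49.8 ± 3.91 CPM (log2 fold change -0.74, SE 0.20, adjusted p = 0.0437), and Cul3, the scaffold of the ligase, rose from 26.0 ± 5.22 to 55.6 ± 19.3 CPM (1.07, SE 0.30, adjusted p = 0.047). Among the small MAF genes Mafg fell (-0.70, SE 0.18, adjusted p = 0.0369), and Mafk (-0.52) and Maff (-0.29) did not pass. Bach1 was at 40.5 ± 7.75 CPM in OVX and 38.3 ± 5.58 in sham (log2 fold change 0.05, adjusted p = 0.898). With the trend correction, Keap1 (-0.30), Cul3 (0.18) and Mafg (-0.36) no longer passed. Each was also lost without OVX replicate 1 and without OVX replicate 2, Keap1 and Mafg without OVX replicate 3, Mafg without sham replicate 1 and Cul3 without sham replicate 3. Their adjusted p ranged over the alternatives from 0.00122 to 0.246, from 0.000174 to 0.578 and from 0.00316 to 0.194.

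No gene of the set that handles glutathione passed in OVX against sham. Gclm was at 424, 396 and 391 CPM in sham and 319, 295 and 298 CPM in OVX, without overlap (log2 fold change -0.46, SE 0.16, adjusted p = 0.103). Its partner subunit Gclc was at 26.7, 18.5 and 19.5 CPM in sham and 32.2, 28.7 and 26.7 CPM in OVX (0.33, SE 0.20, adjusted p = 0.311). Thus the modifier and the catalytic subunit had fold changes of opposite sign, and neither passed. Slc7a11 was at 24.1, 16.4 and 15.1 CPM in sham and 17.4, 13.7 and 11.9 CPM in OVX (-0.49, SE 0.25, adjusted p = 0.218). Gsr was at 175, 106 and 109 CPM in sham and 98.6, 97.6 and 107 CPM in OVX (-0.50, SE 0.22, adjusted p = 0.156). Here sham replicate 1 set the distance, since the fold change was -0.16 without it.

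Prdx1 showed the same dependence more strongly. It was at 4776 CPM in sham replicate 1, at 2221 and 2227 CPM in sham replicates 2 and 3, and at 2506, 2328 and 1920.4 CPM in OVX. Its log2 fold change was -0.65 (SE 0.29, adjusted p = 0.168) and -0.05 without sham replicate 1. Srxn1 was at 145, 134 and 138 CPM in sham and 110.2, 103 and 109.9 CPM in OVX, without overlap but short of the threshold (-0.41, SE 0.16, adjusted p = 0.129). Txnrd1 (-0.07, SE 0.17) and Nqo1 (-0.28, SE 0.24) overlapped between the groups. With the near-identical sham libraries as 1 sample, the samples of 4 genes (Hmox1, Gclm, Srxn1 and Gsr) did not overlap, against 48.4% of all genes tested.

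Besides Hmox1, 6 genes of the set passed under at least 1 alternative in this comparison. Nfe2l2, Gclc and Srxn1 passed under 1, 1 and 2 of the 15 alternatives, all of which took each deposited library as a replicate (adjusted p over the alternatives from 0.0156 to 0.566, from 0.0327 to 0.513 and from 0.0178 to 0.614). With the trend correction, Gclm (-1.05), Slc7a11 (-1.32) and Prdx1 (-1.18) passed downward, over a range of adjusted p across the alternatives of 0.0101 to 0.325, 0.0125 to 0.652 and 0.0244 to 0.89. These are the 3 genes of the set with the lowest GC content, 42.1%, 40.7% and 42.3% in the longest transcript of each. Hmox1 still passed, at -0.83.

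**Figure D2:**
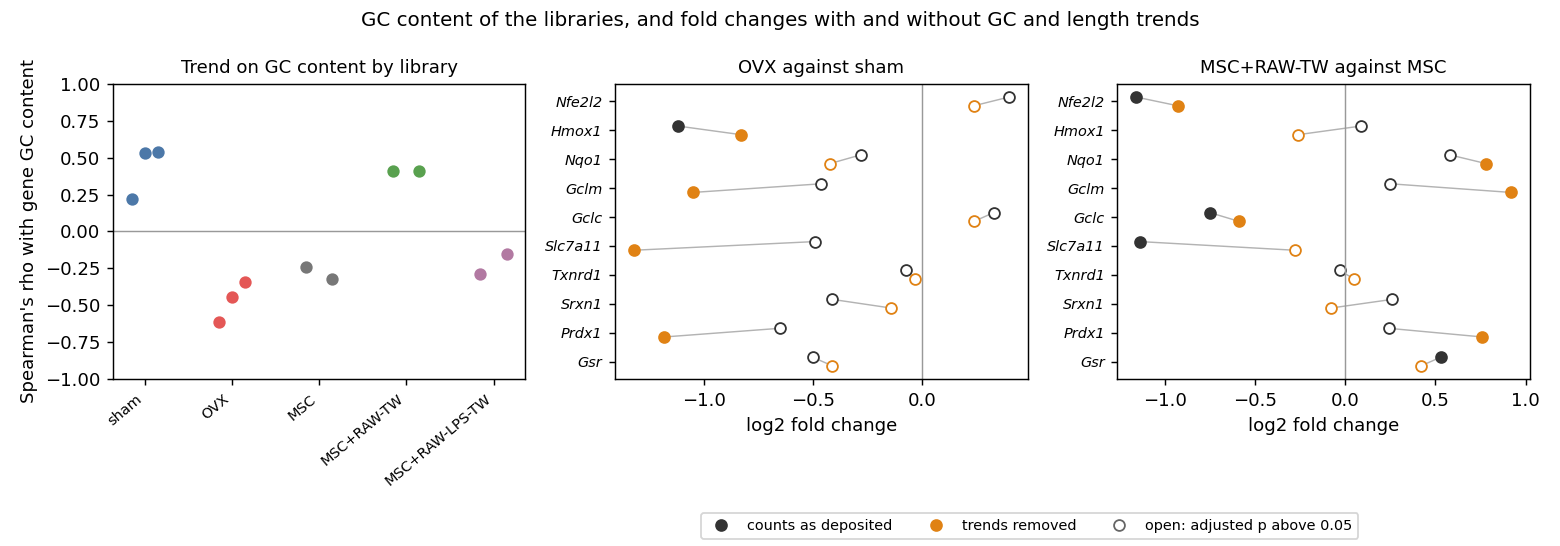
Left, Spearman's rho between gene GC content and the level of each library relative to its experiment, 1 point per library. Middle and right, log2 fold change of each gene in OVX against sham and in MSC+RAW-TW against MSC from the counts as deposited (black) and with the trends on GC content and length corrected for (orange), filled where the adjusted p is at most 0.05. OVX libraries sit below 0 and sham libraries above, and Gclm, Slc7a11 and Prdx1 move furthest in both comparisons.

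The 3 comparisons among the libraries labelled MSC ask how cells stood after exposure to untreated or activated macrophages. They share their groups pairwise, so their values are given side by side and are not independent. In MSC+RAW-LPS-TW against MSC 5 of the 10 genes passed, 3 higher (Slc7a11, Gsr and Nqo1) and 2 lower (Gclc and Prdx1), where 22.0% of the 18806 genes tested passed, 11.7% higher and 10.3% lower. In MSC+RAW-TW against MSC 4 passed, Gsr higher and Nfe2l2, Gclc and Slc7a11 lower, where 31.5% of all genes passed, 14.8% higher and 16.7% lower. Between the co-cultures, taken as MSC+RAW-LPS-TW over MSC+RAW-TW here and throughout, 5 passed, Slc7a11, Nfe2l2 and Gsr higher and Prdx1 and Gclm lower, where 44.5% of all genes passed, 24.0% higher and 20.5% lower. With a fold of at least 2 as well, 2 genes of the set were higher and 1 lower in the first comparison (6.36% and 5.4% of all genes), 2 were lower in the second (11.1%, with 7.35% higher) and 2 were higher in the third (17.6%, with 13.1% lower). The median log2 fold changes of the set were 0.26, 0.16 and 0.23, against -0.01, -0.07 and 0.08 over all genes. The samples of 9, 8 and 10 genes did not overlap, where 59.3%, 87.5% and 86.8% of all genes did not. In each of the 3 comparisons genes of the set passed in both directions.

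**Figure D3:**
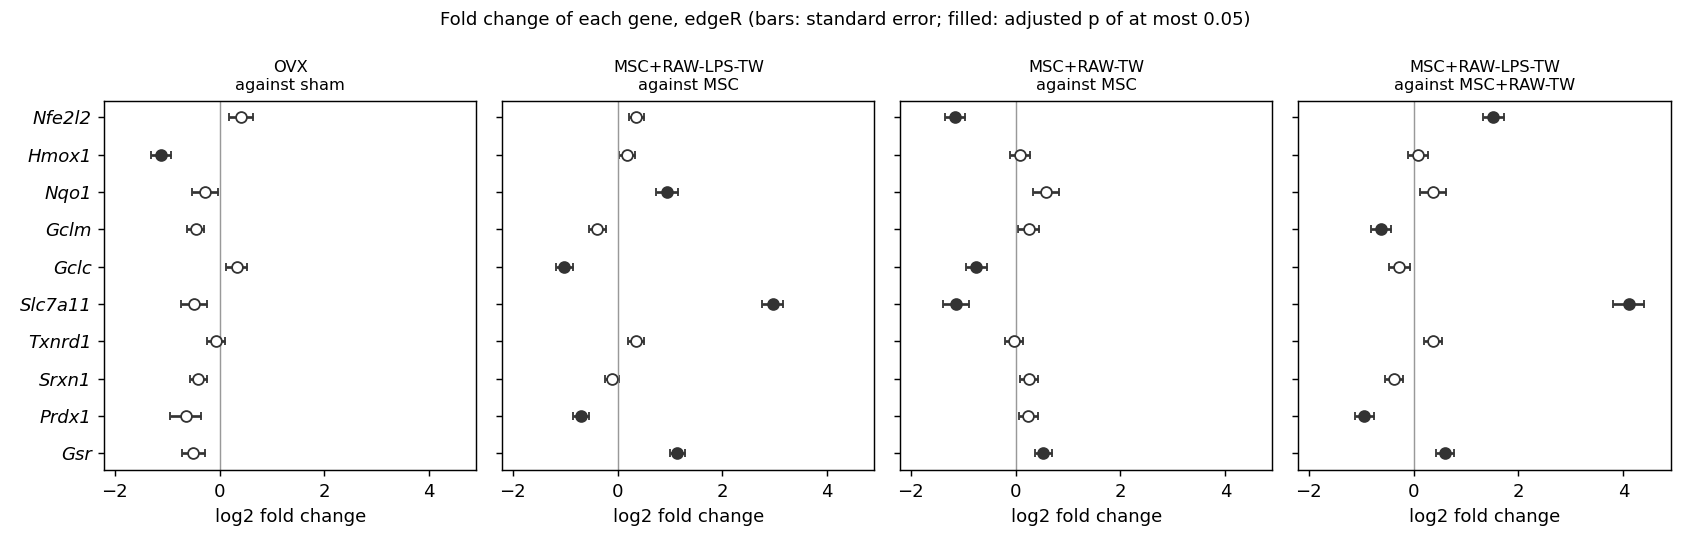
Log2 fold change of each gene (horizontal axis) in the 4 comparisons, with the standard error as bars and filled points where the adjusted p is at most 0.05. Slc7a11 stands furthest to the right in both comparisons of MSC+RAW-LPS-TW, at 2.96 and 4.10, and genes with filled points lie on both sides of 0 in the 3 MSC comparisons.

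Slc7a11, the cystine carrier, had the largest fold change of the set in both comparisons of MSC+RAW-LPS-TW. It was at 9.84 and 11.8 CPM in MSC, at 4.72 and 4.83 CPM in the MSC+RAW-TW pair, and at 98.3 and 68.8 CPM in MSC+RAW-LPS-TW. The 3 groups did not overlap. Against MSC it rose 7.80-fold in MSC+RAW-LPS-TW (log2 fold change 2.96, SE 0.20, adjusted p = 1.29e-06) and fell 2.20-fold in MSC+RAW-TW (-1.14, SE 0.25, adjusted p = 0.00746). Against MSC+RAW-TW the rise was 17.2-fold (4.10, SE 0.29, adjusted p = 2.24e-06). Both rises passed under all 15 alternatives each, at log2 fold changes of 2.67 to 3.20 and 3.16 to 4.33. The fall in MSC+RAW-TW was lost with the trend correction (-0.28, with an adjusted p over the alternatives of 2.37e-05 to 0.335). Its heavy-chain partner Slc3a2, which anchors the carrier in the membrane, was at 194 CPM in MSC, 244 in MSC+RAW-TW and 185 ± 16 in MSC+RAW-LPS-TW and did not pass in any of these comparisons. It is given for that role and was named after its values were seen. The 2 CARE motifs printed above lie before the start site of this gene, and its window also held a variant core on the reverse strand, 97 bases before the start site, but no TGACNNNGC.

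A stretch of 375 bases within the annotated exons of Slc7a11, 2.69% of their length, is 96.0% identical to alpha-tubulin transcripts. Such a copy, at least 150 bases long at 95% identity or more, was found in 9 other genes, of which 5 are pseudogenes and 3 are Tuba1a, Tuba1b and Tuba1c. Tuba1b was at 1003 CPM in MSC+RAW-LPS-TW, 1024 in MSC and 2847 in MSC+RAW-TW. Its log2 fold change against MSC was -0.02 where that of Slc7a11 was 2.96, and 1.51 where that of Slc7a11 was -1.14. Tuba1a and Tuba1c had log2 fold changes of 0.91 and 1.02 in MSC+RAW-LPS-TW against MSC. In OVX against sham Tuba1b was at -0.62 and Tuba1c at -0.60, on the same side as Slc7a11 at -0.49, and Tuba1a at 0.30. The 9 genes together held 7351% of the counts of Slc7a11 in the MSC table and 10613% in the BMM table. How reads in this stretch were shared in the counting was not tested.

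The other glutathione genes divided. Gsr, the glutathione reductase, rose from 95.7 and 90.0 CPM in MSC to 135 and 126 CPM in the MSC+RAW-TW pair and 199.9 and 205 CPM in MSC+RAW-LPS-TW, without overlap. Its log2 fold change was 1.14 in MSC+RAW-LPS-TW (SE 0.14, adjusted p = 0.000134), 0.53 in MSC+RAW-TW (SE 0.17, adjusted p = 0.0335), and 0.60 between these groups (SE 0.17, adjusted p = 0.016). The first held under 15 of 15 alternatives, the others under 11 and 12 of 15. The MSC+RAW-TW call was lost without MSC replicate 1, without MSC replicate 2, without the first of the MSC+RAW-TW libraries and with the trend correction (adjusted p from 0.00278 to 0.228), and the call between the co-cultures was lost without MSC replicate 1, without MSC replicate 2 and in a fit of these groups alone (adjusted p from 0.000398 to 0.0586).

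Gclc, the catalytic subunit of glutamate-cysteine ligase, went the other way. It was at 51.0 and 64.7 CPM in MSC, at 34.1 and 33.0 CPM in the MSC+RAW-TW pair and at 28.9 and 27.7 CPM in MSC+RAW-LPS-TW. Against MSC it fell in MSC+RAW-LPS-TW (log2 fold change -1.02, SE 0.16, adjusted p = 0.000923) and in MSC+RAW-TW (-0.75, SE 0.20, adjusted p = 0.0188). The former held under 15 of 15 alternatives and the latter was lost without MSC replicate 2 (-0.56, with an adjusted p over the alternatives of 0.000567 to 0.157). The co-cultures did not differ detectably (-0.27, SE 0.20, adjusted p = 0.287).

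Gclm, the modifier subunit, was at 88.0 and 114 CPM in MSC, at 119 and 114 CPM in the MSC+RAW-TW pair and at 74.7 and 78.9 CPM in MSC+RAW-LPS-TW. It did not pass against MSC in either co-culture (log2 fold change -0.39, adjusted p = 0.121, and 0.25, adjusted p = 0.363). Between the co-cultures it was lower (-0.63, SE 0.19, adjusted p = 0.0213, passing under 15 of 15 alternatives). It passed upward in MSC+RAW-TW with the trend correction (0.92, with an adjusted p over the alternatives of 0.00934 to 0.90). Exons of Gclm overlap those of Gm17494 on the opposite strand over 296 bases and of Gm6061 on the same strand over 244 bases, 4.7% and 3.9% of its length. The strand setting of the counting is not given in the sources used here.

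Nfe2l2 was lowest in MSC+RAW-TW. It was at 91.5 and 109 CPM in MSC, 40.5 and 47.5 CPM in the MSC+RAW-TW pair, and 129 and 126 CPM in MSC+RAW-LPS-TW, with no overlap between groups. The fall in MSC+RAW-TW was 2.23-fold (log2 fold change -1.16, SE 0.19, adjusted p = 0.0022) and the difference between the co-cultures was 2.87-fold (1.52, SE 0.20, adjusted p = 0.000138), both passing under 15 of 15 alternatives. Against MSC the MSC+RAW-LPS-TW samples were higher without overlap but missed the threshold (0.36, SE 0.15, adjusted p = 0.109).

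The partners of NRF2 were read beside it. Keap1 was at 44.3 ± 1.40 CPM in MSC, 85.1 in MSC+RAW-TW and 53.7 ± 5.39 in MSC+RAW-LPS-TW, so that it rose where Nfe2l2 fell (log2 fold change 0.98, SE 0.18, adjusted p = 0.00293) and was lower between the co-cultures (-0.69, SE 0.18, adjusted p = 0.00867). Both calls were lost with the trend correction, at 0.44 and -0.20 (adjusted p over the alternatives from 8.97e-06 to 0.0654 and from 0.0004 to 0.339). Maff rose from 6.69 ± 1.68 CPM in MSC to 24.0 ± 2.06 in MSC+RAW-LPS-TW (1.86, SE 0.22, adjusted p = 0.000102) and was also above MSC+RAW-TW (1.39, adjusted p = 0.00217), under every alternative. Bach1 fell against MSC in MSC+RAW-LPS-TW (-0.63, adjusted p = 0.0335) and in MSC+RAW-TW (-0.78, adjusted p = 0.0294), each lost without MSC replicate 1 and without MSC replicate 2 (adjusted p over the alternatives from 0.00164 to 0.159 and from 0.000776 to 0.135), and the second also with the trend correction. The first was lost as well without the MSC+RAW-LPS-TW library numbered 3. Mafg did not pass in any MSC comparison. Mafk rose in MSC+RAW-TW (0.60, adjusted p = 0.0383) and was lower between the co-cultures (-0.76, adjusted p = 0.00933), both lost with the trend correction (0.11 and -0.27). The former was lost under 5 of its 15 alternatives, among them without MSC replicate 1, without MSC replicate 2 and without the second MSC+RAW-TW library (adjusted p from 0.00463 to 0.707), and the latter under 1 (adjusted p from 0.00062 to 0.262).

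Hmox1 was abundant in every library of the MSC groups and did not pass in any comparison of them. It was at 1230.3 and 1367 CPM in MSC, 1348 and 1336 CPM in the MSC+RAW-TW pair, and 1365 and 1549 CPM in MSC+RAW-LPS-TW. The log2 fold changes were 0.18 (SE 0.16, adjusted p = 0.492), 0.09 (SE 0.19, adjusted p = 0.769) and 0.09 (SE 0.19, adjusted p = 0.729) for MSC+RAW-LPS-TW against MSC, for MSC+RAW-TW against MSC and between the co-cultures. With the trend correction the last was 0.50 and passed (adjusted p over the alternatives from 0.0386 to 0.975), and the second was -0.26.

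Nqo1 was scarce, with 266 to 493 counts per MSC library. It was at 6.81 and 7.82 CPM in MSC, 12 and 9.09 CPM in the MSC+RAW-TW pair, and 13.3 and 14.8 CPM in MSC+RAW-LPS-TW. It rose 1.94-fold in MSC+RAW-LPS-TW against MSC (log2 fold change 0.95, SE 0.21, adjusted p = 0.0065), a call that was lost only without MSC replicate 1 (0.85, with an adjusted p over the alternatives of 0.000723 to 0.0835). In MSC+RAW-TW it did not pass (0.58, SE 0.25, adjusted p = 0.0907), though it did under 4 of 15 alternatives.

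Of the 3 genes of the set in the thioredoxin arm, Prdx1 was the one to pass in an MSC comparison. It was at 963 and 1049 CPM in MSC, 1148 and 1164 CPM in the MSC+RAW-TW pair, and 584 and 642 CPM in MSC+RAW-LPS-TW, which were the lowest. It fell in MSC+RAW-LPS-TW against MSC (log2 fold change -0.70, SE 0.15, adjusted p = 0.00649) and was lower than in MSC+RAW-TW (-0.94, SE 0.18, adjusted p = 0.00179). The first was lost without MSC replicate 1 (-0.77) and without MSC replicate 2 (-0.63), with an adjusted p over the alternatives of 1.71e-05 to 0.149, and the second held under 15 of 15. Against MSC, MSC+RAW-TW was at 0.24 (adjusted p = 0.353), and at 0.76 and past the threshold with the trend correction (adjusted p over the alternatives from 0.0124 to 0.755). The 2 pseudogenes that share at least 95% identity with Prdx1 over at least 150 bases held counts equal to 0.784% of its own in the MSC table and 0.259% in the BMM table.

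Txnrd1 and Srxn1 missed the threshold in the MSC comparisons as fitted. Txnrd1 passed under 3 of 15 alternatives in MSC+RAW-LPS-TW against MSC and under 3 between the co-cultures (adjusted p from 0.0387 to 0.609 and from 0.0108 to 0.249), and Srxn1 under 2 between the co-cultures (0.0113 to 0.903). Txnrd1 was at 178 and 198 CPM in MSC, 182 and 177 CPM in the MSC+RAW-TW pair, and 226 and 249 CPM in MSC+RAW-LPS-TW (log2 fold change against MSC 0.35, SE 0.15, adjusted p = 0.12). Srxn1 was at 119.8 and 121 CPM in MSC, 141 and 139.8 CPM in the MSC+RAW-TW pair, and 111 and 109.7 CPM in MSC+RAW-LPS-TW. Srxn1 varied little within groups, and its difference of -0.37 between the co-cultures still missed the threshold (SE 0.17, adjusted p = 0.0896). It was 0.03 with the trend correction.

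The macrophage markers moved in these comparisons too. Of the 20 markers, 4 passed upward and 10 downward in MSC+RAW-LPS-TW against MSC, 8 and 5 in MSC+RAW-TW against MSC, and 6 and 11 between the co-cultures, with median log2 fold changes of -0.53, 0.23 and -1.11. Of the 14 stromal markers 7 passed upward and 1 downward in the first of these comparisons, 3 and 5 in the second, and 8 and 3 in the third, with medians of 0.42, -0.39 and 0.77. Ribosomal RNA took 4.143% to 4.825% of counts in MSC, 1.909% to 1.933% in MSC+RAW-TW and 5.67% to 8.025% in MSC+RAW-LPS-TW. Of 8 neutrophil markers 3 could be tested, of which 2 passed upward in the first comparison, 1 in the second and 2 in the third (medians 5.01, 1.26 and 3.75). The sum over the 8 was 11.8 to 16.4 CPM in MSC, 31.5 to 34.5 in MSC+RAW-TW and 370.5 to 554 in MSC+RAW-LPS-TW, with Elane and Ltf at 0 in the last, S100a9, Mpo, Elane and Ltf at 0 in MSC+RAW-TW, and S100a9, Ly6g, Mpo and Ltf at 0 in MSC. S100a8 was the largest part of this sum, with means of 13.5, 31.2 and 428 CPM, and Camp reached 34.1 CPM in MSC+RAW-LPS-TW. The other 6 markers lay below 1 CPM there. Prdx1 was lowest where the sum of the macrophage markers was lowest, and Slc7a11 and Gsr were highest there. The part of the cell mixture or of ribosomal RNA in any of these changes was not tested.

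The surrounding pathway was read through 81 further genes in 5 lists, of which 77 could be tested. In OVX against sham 2 of the 77 passed upward and 16 downward (23.4%, against 14.2% of all genes), with a median log2 fold change of -0.33. With the trend correction 11 passed, all downward, where 7.29% of all genes passed. Without OVX replicate 2, 2 passed, both downward, where 2.17% of all genes passed. In MSC+RAW-LPS-TW against MSC 20 passed upward and 17 downward (48.1%, against 22.0%), in MSC+RAW-TW against MSC 31 and 13 (57.1%, against 31.5%), and between the co-cultures 16 and 33 (63.6%, against 44.5%). The medians were -0.05, 0.39 and -0.44, and 0.17 and -0.27 for the latter 2 with the trend correction. Without MSC replicate 1 or 2, which leaves 1 MSC sample, fewer list genes passed in MSC+RAW-LPS-TW against MSC and in MSC+RAW-TW against MSC. Fewer of all genes passed in these fits too, and more did without either MSC+RAW-LPS-TW library. The counts by list without these libraries, given below, are to be read beside that.

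**Figure D4:**
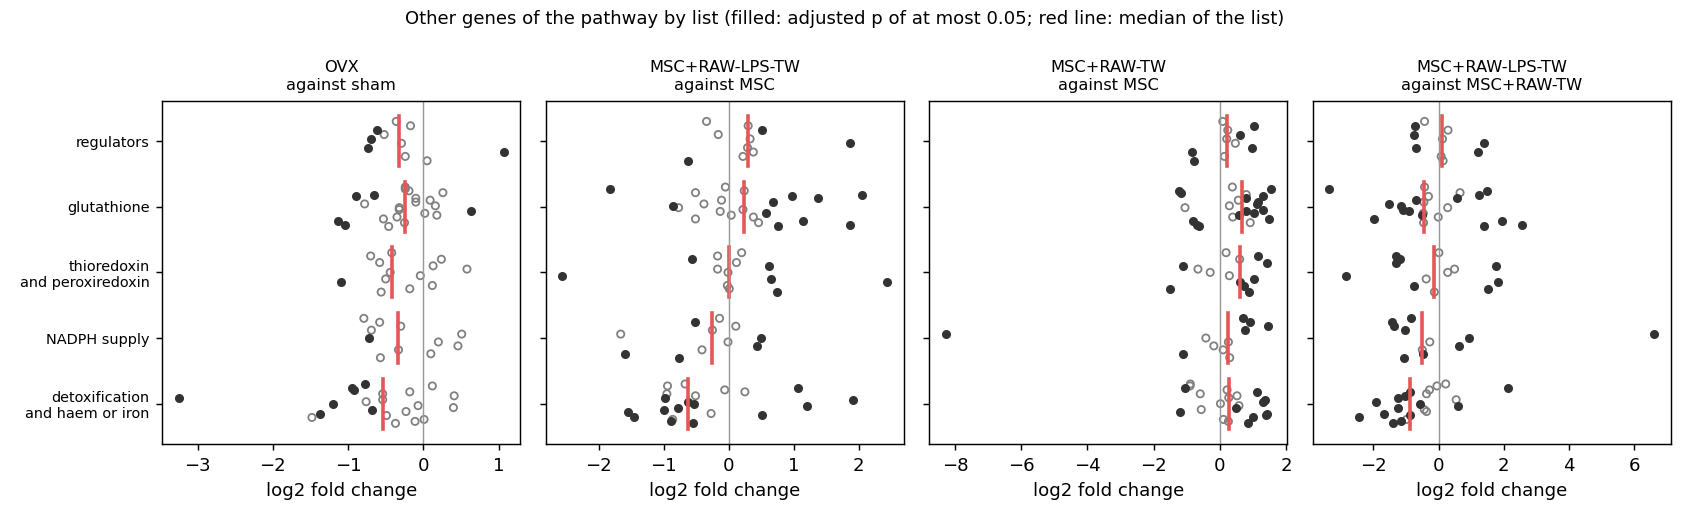
Log2 fold change (horizontal axis) of each tested gene of the 5 lists in the 4 comparisons, filled where the adjusted p is at most 0.05, with the median of each list as a red line. In OVX against sham the medians of all 5 lists lie below 0, and in MSC+RAW-TW against MSC they all lie above 0. The point furthest from 0 in each of the comparisons with MSC+RAW-TW is Nnt, at 0 counts there.

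Of the 22 tested glutathione genes, 1 passed upward and 4 downward in OVX, where 8.03% and 6.19% of all genes did. This fell to 1 in all without OVX replicate 1 or 3 (5.1% and 8.66% of all genes) and to none without OVX replicate 2 (2.17%). It was 3, all downward, with the trend correction (7.29%). The upward call was lost without sham replicate 3 as well. Glrx, a glutaredoxin, fell from 414 ± 192 to 191 ± 39.9 CPM (log2 fold change -1.14, SE 0.29, adjusted p = 0.0397), a call lost without each of the OVX replicates and without sham replicate 1, among others (adjusted p over the alternatives from 1.45e-05 to 0.121). Abcc4, an exporter of organic anions, fell from 30.4 ± 2.62 to 15.1 ± 1.36 CPM (-1.04, adjusted p = 0.0117), lost only without OVX replicate 2 (adjusted p from 1.59e-05 to 0.0776). In the MSC comparisons Abcc4 went up in MSC+RAW-LPS-TW, at 77.1 ± 6.60 CPM against 21.4 ± 0.289 in MSC and 12.9 in MSC+RAW-TW (log2 fold changes 1.86 and 2.55). The list as a whole had 8 upward and 2 downward in MSC+RAW-LPS-TW against MSC, where 11.7% and 10.3% of all genes passed (5 and 3 without MSC replicate 1, 5 and 2 without MSC replicate 2, and 6 and 5 without the MSC+RAW-LPS-TW library numbered 3). It had 10 and 5 in MSC+RAW-TW against MSC, beside 14.8% and 16.7% of all genes (7 and 1 without MSC replicate 1, and 8 in all without MSC replicate 2), and 6 and 8 between the co-cultures, beside 24.0% and 20.5%. Gstt1, a glutathione transferase, rose from 3.56 ± 0.917 to 14.5 ± 1.96 CPM in MSC+RAW-LPS-TW (2.05, adjusted p = 0.000146). Gpx1, the main cytosolic glutathione peroxidase, rose from 359 ± 0.482 to 977 CPM in MSC+RAW-TW (1.48, SE 0.20, adjusted p = 0.00134). Mgst3, a microsomal transferase, rose there as well, to 30.1 CPM (1.54), and was at 2.99 ± 0.528 CPM in MSC+RAW-LPS-TW (-3.36 between the co-cultures, adjusted p = 3.58e-06).

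In the thioredoxin and peroxiredoxin list of 13 genes, Prdx5, a peroxiredoxin of mitochondria and peroxisomes, went against Prdx1 in both comparisons of MSC+RAW-LPS-TW. Prdx5 had the same sign as Prdx1 in OVX against sham and in MSC+RAW-TW against MSC. It fell from 1074 ± 41.8 to 512 ± 36.1 CPM in OVX (log2 fold change -1.10, SE 0.17, adjusted p = 0.0089), the only gene of the list to pass there, lost without OVX replicate 2 (adjusted p over the alternatives from 9.02e-08 to 0.0563). It rose from 381 ± 9.16 CPM in MSC to 2053 ± 54.7 in MSC+RAW-LPS-TW (2.44, SE 0.16, adjusted p = 7.23e-07), where Prdx1 fell, and was at 569 CPM in MSC+RAW-TW. Sesn1, a stress-induced sestrin, fell from 65.2 ± 4.32 to 11 ± 3.34 CPM in MSC+RAW-LPS-TW against MSC (-2.56, adjusted p = 4.82e-06) and was at 77.5 CPM in MSC+RAW-TW. Of the mitochondrial members, Txn2 rose to 309 CPM in MSC+RAW-TW from 118 ± 7.38 in MSC (1.43, adjusted p = 0.00167) and Prdx3 fell to 11.5 from 33.4 ± 0.327 CPM (-1.51, adjusted p = 0.00154). The list had 4 upward and 2 downward in MSC+RAW-LPS-TW against MSC (1 and 1 without MSC replicate 1 or 2, and 3 and 1 without the MSC+RAW-LPS-TW library numbered 2), 6 and 2 in MSC+RAW-TW against MSC (3 and 2 without MSC replicate 2), and 3 and 5 between the co-cultures, where 22.0%, 31.5% and 44.5% of all genes passed. In OVX 14.2% of all genes passed. Without sham replicate 1, which leaves 1 sham sample, more passed in the list and among all genes.

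Of 11 genes that supply NADPH, 1 passed in OVX, downward, no more than the 14.2% of all genes. None did without OVX replicate 2 or 3 or with the trend correction, where 2.17%, 8.66% and 7.29% of all genes passed. Without sham replicate 1, which leaves 1 sham sample, more passed, in both directions, as did more of all genes. In MSC+RAW-LPS-TW against MSC 2 passed upward and 3 downward, where 22.0% of all genes passed. The 2 upward calls were lost without MSC replicate 1, without MSC replicate 2 and without the MSC+RAW-LPS-TW library numbered 2, and 2 downward calls were left without MSC replicate 1 or 2. The downward calls were led by Idh1, the cytosolic isocitrate dehydrogenase, which fell from 121 ± 15.6 to 39.7 ± 1.70 CPM (log2 fold change -1.60, SE 0.16, adjusted p = 2.1e-05). Idh1 also fell in MSC+RAW-TW, to 54.8 CPM (-1.11, adjusted p = 0.00274). Pgls of the pentose phosphate pathway was at 46.4 ± 1.91 CPM in MSC, 125 in MSC+RAW-TW and 49.7 ± 9.08 in MSC+RAW-LPS-TW, a rise of 1.47 and a difference between the co-cultures of -1.36 on the log2 scale. Taldo1 of the same pathway was lower between the co-cultures (124 ± 25.5 against 327 CPM, -1.42, adjusted p = 0.000214). The list had 4 upward and 2 downward in MSC+RAW-TW against MSC (2 and 2 without MSC replicate 1, and 2 and 1 without MSC replicate 2), and 3 and 6 between the co-cultures, where 31.5% and 44.5% of all genes passed. These counts include Nnt, the mitochondrial transhydrogenase, named after its values were seen. It had 0 counts in the MSC+RAW-TW sample and lay below 1 CPM in every other sample of the MSC groups, so no fold is given for it.

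The list of detoxification, haem and iron genes held the neighbours of Hmox1 in haem breakdown. Of its 21 tested genes 7 passed in OVX, all downward, where 6.19% of all genes did. There were 4 without OVX replicate 1 and 2 without OVX replicate 2, where 5.1% and 2.17% of all genes passed in either direction. Blvrb, a biliverdin reductase, fell from 529.9 ± 21.2 to 209 ± 31.8 CPM (log2 fold change -1.37, SE 0.19, adjusted p = 0.00794), under every alternative. Marco, a macrophage scavenger receptor, fell from 792 ± 147 to 85.2 ± 8.53 CPM (-3.25, SE 0.21, adjusted p = 0.000632), also under every alternative. Blvra, named here after its values were seen, did not pass in OVX (-0.49, SE 0.17, adjusted p = 0.0854). In MSC+RAW-LPS-TW against MSC 4 passed upward and 9 downward, beside 11.7% and 10.3% of all genes (2 and 6 without MSC replicate 1). Marco rose from 134 ± 8.56 to 501 ± 95.3 CPM (1.91, adjusted p = 1.11e-05), although most macrophage markers that passed were lower, and Cbr3, a carbonyl reductase, fell from 37.0 ± 2.92 to 12.5 ± 3.96 CPM (-1.55, adjusted p = 0.000292). In MSC+RAW-TW against MSC 8 passed upward and 2 downward, beside 14.8% and 16.7% of all genes (9 and 4 without either MSC+RAW-LPS-TW library), with Blvrb at 417 against 163 ± 1.70 CPM (1.39, adjusted p = 0.00129) and Cbr1 at 78 against 29.9 ± 3.14 CPM (1.42, adjusted p = 0.00129). Between the co-cultures 2 were higher and 11 lower in MSC+RAW-LPS-TW, beside 24.0% and 20.5% of all genes (1 and 10 without MSC replicate 1 or 2). Ugdh, which makes UDP-glucuronate, was at 111 ± 12.2 against 25.1 CPM (2.12, adjusted p = 3.03e-05), and Blvra, the other biliverdin reductase, at 56.1 ± 6.22 against 301 CPM (-2.45, adjusted p = 3.08e-06). Hmox1 itself did not pass in any of the MSC comparisons in which these enzymes did.

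Among the regulators, 1 of 10 passed upward and 3 downward in OVX, where 14.2% of all genes passed. None did without OVX replicate 1 or 2 (5.1% and 2.17% of all genes). Without OVX replicate 3, 1 did (8.66%), and with the trend correction 1 did (7.29%). The upward call was also lost without sham replicate 3. In MSC+RAW-LPS-TW against MSC 2 passed upward and 1 downward (22.0% of all genes, and 1 in all without MSC replicate 1 or 2), in MSC+RAW-TW against MSC 3 and 2 (31.5%, with 2 and 1 without MSC replicate 1 and 2 in all without MSC replicate 2 or with the trend correction), and between the co-cultures 2 and 3 (44.5%). Besides those given above, Rbx1, the RING subunit of the KEAP1 ligase, rose from 126 ± 0.995 to 248 CPM in MSC+RAW-TW (log2 fold change 1.02, adjusted p = 0.00332). Cul3, named here after its values were seen, fell in MSC+RAW-TW against MSC from 60.7 ± 10.5 to 33.2 CPM (-0.83, SE 0.20, adjusted p = 0.0114), a call lost without MSC replicate 2 and with the trend correction, which turned its sign. It was higher between the co-cultures (78.7 ± 1.76 against 33.2 CPM, 1.22, adjusted p = 0.000809), a call that was lost with the trend correction (0.30, with an adjusted p over the alternatives of 2.04e-07 to 0.185).

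The genes whose levels followed Nfe2l2 and Hmox1 most closely were sought among 9733 genes, as the Pearson correlation of log2 CPM after each experiment was centred on its own mean, over 10 samples (5 BMM and 5 MSC). For Nfe2l2 they were Rcn2 (0.992), BE692007 (0.985), Rab6a (0.985), Rap2c (0.983) and Rnf111 (0.983). For Hmox1 they were Arhgap26 (0.974), Slc13a3 (0.960), Tbc1d10b (0.955), Arhgdib (0.954) and Mag (0.946). None of these was among the 10 genes or the 81 of the lists. Within the set the correlation with Nfe2l2 ran from -0.684 (Srxn1) to 0.709 (Slc7a11). That with Hmox1 ran from -0.428 (Gclc) to 0.747 (Srxn1), and Nfe2l2 and Hmox1 correlated at -0.229. All genes were compared over the same libraries, which carry trends on GC content, so the values describe likeness in these libraries.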

How the data were processed

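Polyadenylated RNA of cultured BMMs and MSCs was sequenced as paired reads, and the deposited values are raw gene counts that the authors made by trimming with Trim Galore 0.6.7, alignment to GRCm38 with HISAT2 2.1.0 and counting over exons with featureCounts 2.0.1. Whether featureCounts used strand, and whether it counted pairs or single reads, is not given in the sources used here.

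Groups followed the labels. Near-identical libraries were summed to 1 sample. Genes that passed edgeR's filterByExpr were tested with edgeR 4.0.16 (R 4.3.3), TMM normalization and the quasi-likelihood F-test, separately in each experiment and with all MSC groups in a common fit (3 residual degrees of freedom for BMMs, 2 for MSCs). P-values were adjusted by Benjamini-Hochberg over all genes tested. CPM used TMM-scaled library sizes within an experiment, and no test was made across experiments. The fits of OVX against sham and of MSC+RAW-LPS-TW against MSC were first tested on simulated counts. Alternatives were RLE normalization, DESeq2 1.42.0, other filters and correction for trends on GC content and exon length. Further ones were a replicate block, a block on column headers, libraries kept apart, and each library left out.

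Of each list and comparison, the named genes were at most the 2 with the largest absolute log2 fold change among those with a fold of at least 2, an adjusted p of at most 0.05 and a mean of at least 5 CPM, and Keap1, Bach1 and the small MAF genes were always given. The 10 genes, the lists and the markers were chosen with earlier results of these data known.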

Additional observations from a re-analysis of the deposited data

How the results depend on the processing

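For the 10 genes under the alternatives, 551 values kept their direction and their side of the threshold, 13 lost the call, 29 gained it and 7 changed sign. The cause was not tested for these changes. In OVX against sham the number of the 10 genes that passed was 1, where 14.2% of all genes passed. It was 2 with DESeq2 (21.7% of all genes), 2 with no filter on low counts (12%), 3 with each deposited library as a replicate (26.3%) and 4 with the trend correction (7.29%). It was 0 without OVX replicate 2 (2.17%), and 1 without OVX replicate 1 (5.1%) or OVX replicate 3 (8.66%). The genes called there were 594 with the trend correction and 343 to 2309 with a library left out (717 without OVX replicate 1, 343 without OVX replicate 2, 2309 without sham replicate 1).

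With the replicate number as a block and each deposited library as a replicate, 6 of the 10 genes passed, 2 higher and 4 lower in OVX, where 40% of all genes passed. The deviations of same-numbered OVX and sham libraries from their group means correlated at 0.49, -0.05 and 0.47. Those of differently numbered libraries ran from -0.58 to 0.44. Sham replicates 2 and 3 were near-identical, so their pairs could not be told apart. The check does not settle whether the numbers pair the samples, and they were not taken to. For the MSC comparisons no analysis paired by replicate number was possible because the table columns of the co-cultures could be tied to a group and not to a sample. A block on the mark _2 that some column headers carry, whose meaning is not stated, was chosen after seeing the data. It gave 8 of the 10 genes in MSC+RAW-LPS-TW against MSC, with Nfe2l2, Gclm and Txnrd1 added, where 28.3% of all genes passed. No BMM header carries the mark. For OVX against sham the block was the leading digits of the library number in the header, whose meaning is not stated either. These set OVX replicate 2 and sham replicate 2 apart from the other libraries.

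With a library left out, 3 to 6 genes passed in MSC+RAW-LPS-TW against MSC (3 without MSC replicate 1) and 2 to 5 in MSC+RAW-TW against MSC (2 without MSC replicate 2). The genes called in the latter were 2100 with the trend correction and 2255 to 4240 with a library left out (2255 without MSC replicate 2). The sign changes were of values that had not passed. With the trend correction MSC+RAW-TW against MSC gave -0.26 for Hmox1, 0.05 for Txnrd1 and -0.08 for Srxn1, and Srxn1 was 0.03 between the co-cultures. With a library left out Txnrd1 ran from -0.1 to 0.04 in OVX against sham and from -0.11 to 0.06 in MSC+RAW-TW against MSC, and Hmox1 from -0.01 to 0.19 between the co-cultures.

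The fits rest on 3 residual degrees of freedom for BMMs and 2 for MSCs, and MSC+RAW-TW on 1 sample.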
